A study of Mus musculus with 12 samples.

Results

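Expression of 9 genes of the transforming growth factor beta (TGF-beta) pathway was examined by RNA-Seq in 4T1 tumours of mice that received endothelial extracellular vesicles (EVs) loaded with a miRNA. The genes were chosen by name, not by their values: the ligands Tgfb1, Tgfb2, Tgfb3 and Inhba, the latency gene Ltbp1, the receptor Tgfbr1 and the response genes Smad7, Skil and Pmepa1. They are 9 of 35944 genes in the tables, and each of the 9 passed the filter on low counts, as did 15459 genes in all.

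4T1 is a mouse mammary carcinoma line. Per the labels, 100000 of its cells were placed under the skin of female BALB/c mice aged 6 to 8 weeks, which have an intact immune system. From day 5 on, 3 µg of EVs was injected beside the tumour every 2 days, and tumour RNA was taken on day 21. The EVs came from MS1, a mouse endothelial cell line, and were electroporated with a mimic of either miR-222-3p, miR-183-5p or miR-142-5p. In the control group (ctrl) the EVs carried a mimic of cel-miR-67, a nematode miRNA. Thus all 4 groups received EVs, and an untreated group was not analysed here. Each group held 3 tumours, numbered 1 to 3 as in the labels. Whole tumours were sequenced, so fewer cells of a type cannot be told apart from less RNA per cell. The study asked how these EVs affect tumour growth and the macrophages in the tumour. The comparisons below ask whether TGF-beta genes differed between the groups, and how they varied between tumours.

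TGF-beta ligands are secreted in a latent form, bound to a propeptide that latent TGF-beta binding proteins tether to the matrix. Once released, they bind a pair of serine/threonine kinase receptors, which phosphorylate SMAD2 and SMAD3. These enter the nucleus with SMAD4 and switch on target genes, among them inhibitors that dampen the signal. In tumours the pathway is known for restraining immune cells and for activating fibroblasts. Activins, dimers of the protein that Inhba encodes, use related receptors and the same SMADs.

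The mature sequences of the 3 miRNAs are shown because their seeds (bases 2 to 8, in capitals) can be sought in the members' transcripts. They are taken from RefSeq on GRCm38.p6, and no seed is shared between them.
mmu-miR-142a-5p: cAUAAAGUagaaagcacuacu
mmu-miR-183-5p: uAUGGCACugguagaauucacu
mmu-miR-222-3p: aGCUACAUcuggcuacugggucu

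Seed matches of 7 bases (7mer-m8), or of 8 with an A opposite the first base (8mer), were sought in the 3′ UTR of the most abundant protein-coding transcript of each gene, on the sense strand. Of 14347 genes with such a UTR, 14.3% held a match to miR-142-5p, 9.36% to miR-183-5p and 9.59% to miR-222-3p. Among the 9 members, 1 held a match to miR-142-5p, 2 to miR-183-5p and 1 to miR-222-3p. The members' UTRs were longer than most, with a median of 2656 bases against 968. The matches are shown with their flanks, on GRCm38 and on the plus strand, with the match in capitals. A match is a description of letters and not evidence of binding.
Inhba, 8mer for miR-142-5p, chr13:16029439-16029460: ttgaaaaACTTTATAaaagtga
Inhba, 8mer for miR-183-5p, chr13:16029969-16029990: tctaactGTGCCATAtcagaga
Skil, 7mer-m8 for miR-183-5p, chr3:31120482-31120502: aaatgatGTGCCATcgttttc
Skil, 7mer-m8 for miR-183-5p, chr3:31120939-31120959: agctcctGTGCCATcaaggag
Tgfbr1, 7mer-m8 for miR-222-3p, chr4:47411967-47411987: acatgttATGTAGCtgtaagt
Tgfbr1, 7mer-m8 for miR-222-3p, chr4:47413842-47413862: agtggccATGTAGCcattttt

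Estimated reads per library ranged from 20285968 to 27021401. The libraries fell into a set of 8 and a set of 4 by the share of reads given to the pseudogene Gm28661 among those of Gm28661 and the mitochondrial gene mt-Co2. The 4 were miR-183-5p tumour 3 and the 3 miR-222-3p tumours, so this split and the miR-222-3p group cannot be told apart. The tumour label was checked against carcinoma markers: Epcam, Krt8 and Krt18 had mean levels of 96.2, 545 and 804 TPM, a level scaled to transcript length and library size. Markers of macrophages, neutrophils, fibroblasts, endothelial cells and T lymphocytes were above 0 in each tumour. Skeletal muscle markers summed to 336 TPM in miR-183-5p tumour 3 and to at most 25.7 TPM in the other 11 tumours. The labels do not say that the 3 tumours of a group came from separate mice, so p-values measure the spread between these samples.

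The genes differed widely in level. In order of mean TPM they were Pmepa1 (120 ± 30.6, SD, n = 12), Ltbp1 (97.7 ± 11.1), Tgfb1 (86.6 ± 7.55), Tgfb3 (72.6 ± 9.13), Tgfbr1 (42.3 ± 6.83), Skil (40.0 ± 4.52), Smad7 (27.9 ± 3.42), Inhba (20.1 ± 6.09) and Tgfb2 (1.70 ± 0.451). The median tested gene had a mean level of 15.4 TPM, so 8 of the 9 lay above it and Tgfb2 lay below. Neighbours in this order overlapped in their ranges over the 12 tumours, except at 2 steps. Tgfb3 was above Tgfbr1 in each tumour, with no overlap, and Inhba was above Tgfb2 by a mean of 11.6-fold. Pmepa1 was above Ltbp1 in 9 of 12 tumours, Ltbp1 above Tgfb1 in 9 and Tgfbr1 above Skil in 10. Skil was above Smad7 in 12 of 12, by 1.44-fold, although their ranges overlapped.

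**Figure D1:**
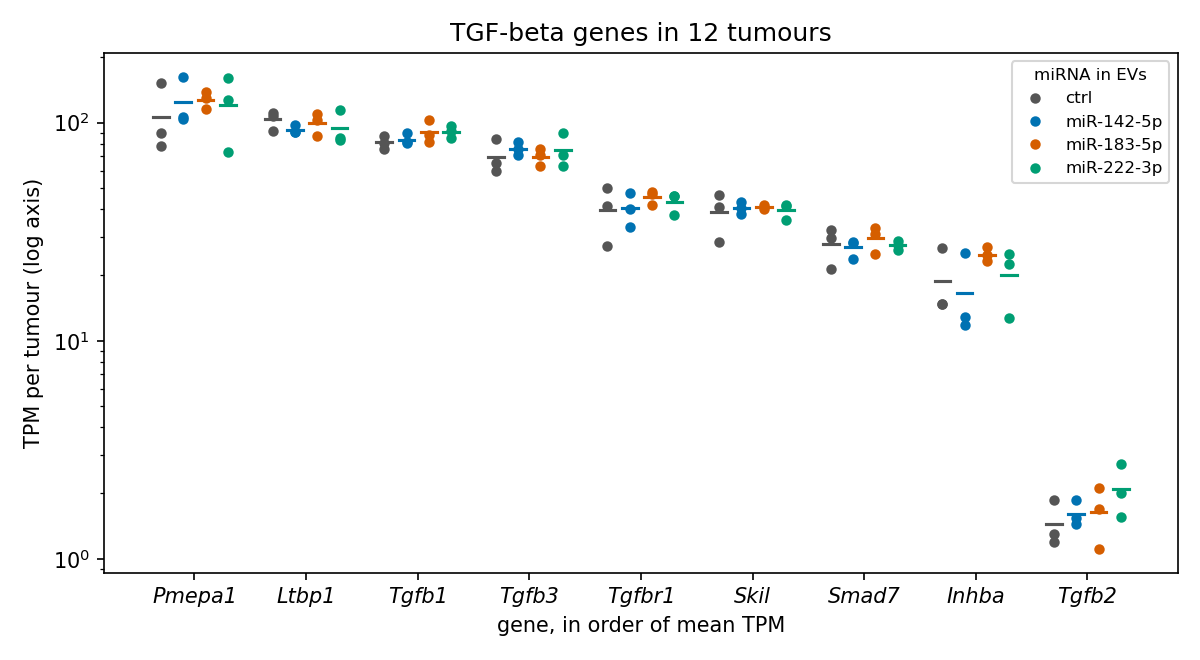
TPM (log axis) of the 9 genes in each of the 12 tumours; points are tumours, coloured by the miRNA in the EVs, and short bars are means of 3 tumours. Tgfb2, between 1.11 and 2.72 TPM, lies far below the other genes, and the 3 treated groups overlap with ctrl in each gene.

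Among the 3 TGF-beta ligands, RNA of Tgfb1 and Tgfb3 was present at similar levels and that of Tgfb2 was scarce. Tgfb1, the isoform most studied in immune cells, made up between 48.2% and 61.1% of their summed TPM, and Tgfb3 between 37.7% and 50.6%. Tgfb2 made up between 0.676% and 1.74%. Tgfb1 exceeded Tgfb3 in 10 of 12 tumours, and the exceptions were ctrl tumour 3 and miR-222-3p tumour 1. In the latter the ratio of Tgfb1 to Tgfb3 was 0.953, whereas miR-183-5p tumour 3 had the highest ratio, 1.62. The summed level of the 3 ligands stayed between 137 and 177 TPM. These levels sum all annotated transcripts of a gene. The protein-coding Tgfb1 transcript alone had a mean of 59.1 TPM, below the 72.6 TPM of Tgfb3. The order of Tgfb1 and Tgfb3 therefore depends on which transcripts are counted.

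Reads were split between annotated transcripts by the authors' program, so the following shares are estimates. Tgfb3, Inhba and Tgfbr1 were carried almost wholly by 1 protein-coding transcript, which held 100%, 100% and 97.9% of the gene's TPM. For Ltbp1, whose product tethers latent TGF-beta to the matrix, short protein-coding forms that start inside the gene dominated. Ltbp1-202 and Ltbp1-203, which start at positions 75178911 and 75178810 of chromosome 17 on GRCm38, held 53.0% ± 2.37 and 23.7% ± 6.22 (SD, n = 12). The long form Ltbp1-201, which starts upstream at position 75005568, held 1.86% ± 1.54. A transcript with a retained intron, Ltbp1-206, held between 9.07% and 33.8%. For Tgfb1 the protein-coding transcript held 68.7% ± 9.08, and the rest was given to transcripts annotated as subject to nonsense-mediated decay, with a retained intron or non-coding. Skil-204 held 78.3% of Skil, Pmepa1-201 held 65.3% of Pmepa1, and Smad7-201 held 59.7% of Smad7. None of the comparisons that follow gave a call when only reads of protein-coding transcripts were counted, a setting chosen after the data were seen.

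**Figure D2:**
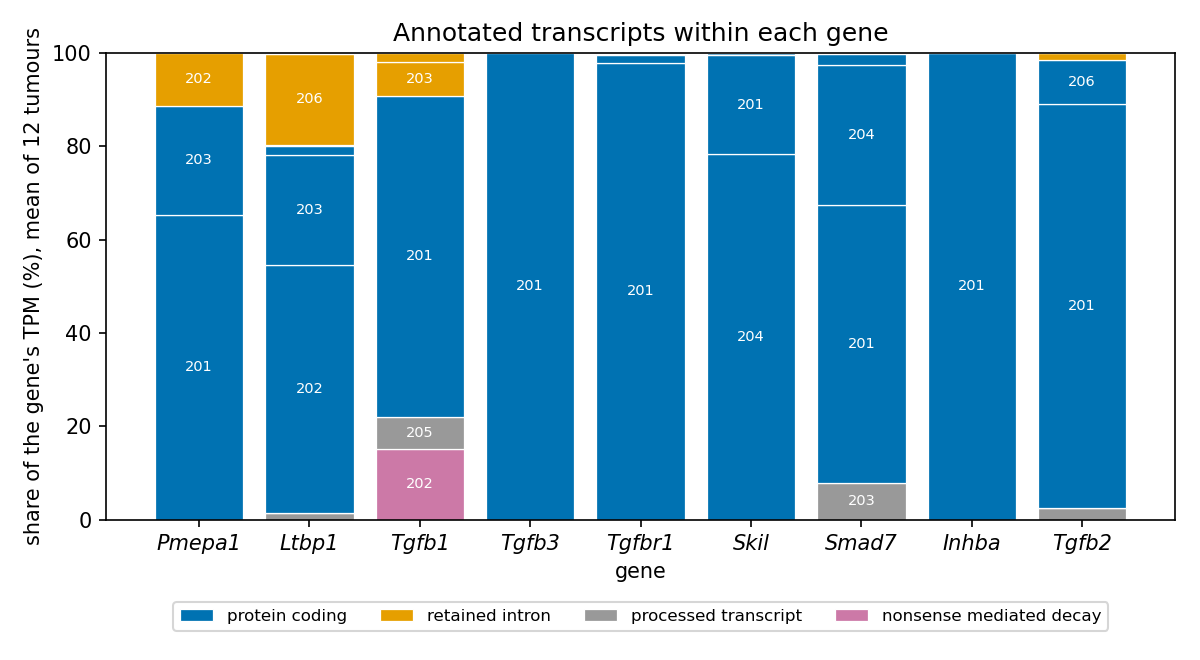
Share of each gene's TPM (%) assigned to its annotated transcripts, mean of 12 tumours; segments are transcripts, coloured by annotation class, and those holding at least 7% carry the number of the transcript. Tgfb3 and Inhba consist of a single transcript, whereas Ltbp1, Tgfb1, Pmepa1 and Smad7 include numbered segments not annotated as protein-coding.

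To determine whether any of the EV treatments altered these genes, normalised read counts were compared with DESeq2. No member passed an adjusted p-value of 0.05 compared to ctrl in any of the 3 groups treated with loaded EVs. At an unadjusted p-value under 0.05 the count of members was also 0 in each comparison, and edgeR and limma called 0 members. Few genes of any kind were called. The share was 0.00649% of 15413 genes in the miR-142-5p comparison, 0.0% in that of miR-183-5p and 0.026% in that of miR-222-3p, and edgeR and limma called 0 genes in each. At an unadjusted p-value under 0.05 there were 549, 496 and 353 genes (DESeq2). The 3 comparisons share the ctrl tumours. The members' log2 fold changes lay between -0.13 and 0.26 for miR-142-5p, between -0.02 and 0.44 for miR-183-5p and between -0.14 and 0.54 for miR-222-3p. Their medians were 0.05, 0.17 and 0.12, beside medians over all tested genes between -0.011 and -0.005.

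**Figure D3:**
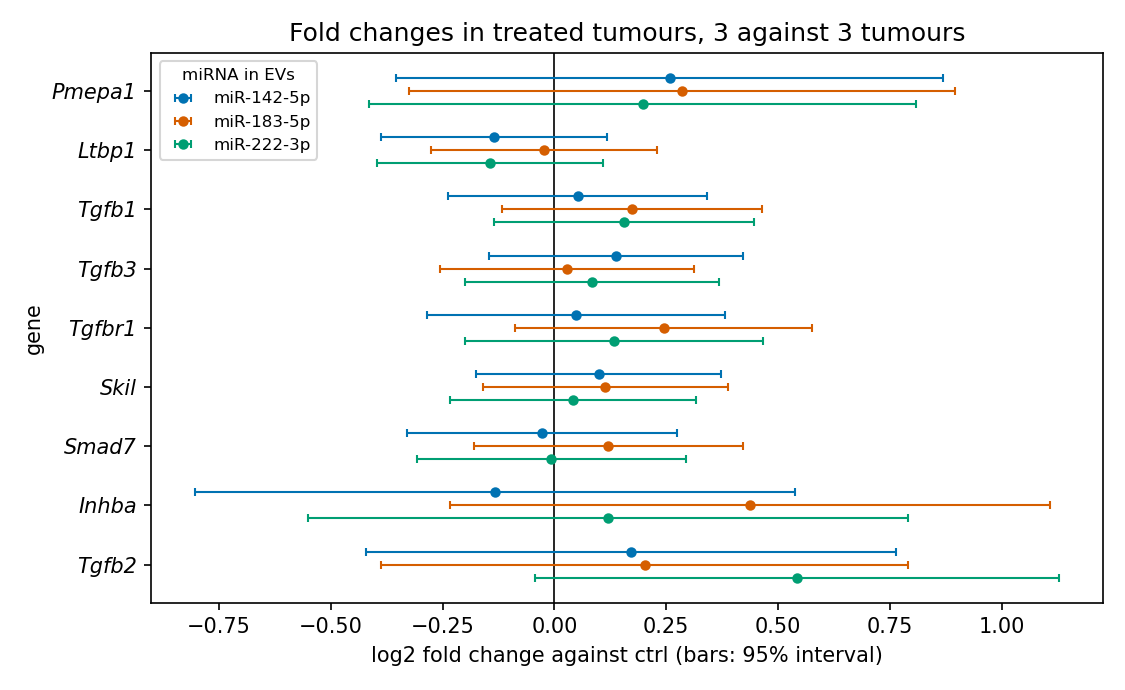
Log2 fold change of each gene in treated tumours against ctrl (DESeq2, 3 against 3 tumours); points are estimates, bars are 95% intervals and colours are the miRNAs. Each of the 27 intervals includes 0, and the intervals of Inhba, Tgfb2 and Pmepa1 are the widest.

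Tgfb1 varied little. Ctrl tumours 1 to 3 had normalised read counts of 2352, 1845 and 1892, against 2180.2, 2256 and 1876 under miR-142-5p. The counts were 2020.3, 2252 and 2596 under miR-183-5p, and 1990.3, 2405 and 2386 under miR-222-3p. Ctrl tumour 1 was as high as most treated tumours, and the groups overlapped. The fold change was 1.04 for miR-142-5p (95% interval 0.848 to 1.27), 1.13 for miR-183-5p (0.922 to 1.38) and 1.11 for miR-222-3p (0.911 to 1.36). The coefficient of variation of its TPM over the 12 tumours, 8.72%, was lower than that of most tested genes, whose median was 17.0%.

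Tgfb2, the ligand with the lowest level, had the largest fold change among the members against ctrl. Its counts were 107, 88.3 and 133 in ctrl, 126, 111 and 132 in the miR-142-5p group, and 128, 87.1 and 162 in the miR-183-5p group. In the miR-222-3p group they were 142, 118 and 217, of which 2 exceeded each ctrl tumour and 1 did not. The mean was 159 ± 52.0 against 109 ± 22.2 in ctrl (SD, n = 3), a fold change of 1.46 (95% interval 0.970 to 2.19, DESeq2 unadjusted p = 0.0697, adjusted p = 0.999956). The 3 miR-222-3p libraries all belonged to the smaller library set, and so did that of miR-183-5p tumour 3, which had the highest Tgfb2 count outside the miR-222-3p group. The part of the library set in this difference was not tested. Tgfb2 rests on few reads, between 75.9 and 225 per library.

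Tgfb3 counts ranged from 3091 in ctrl tumour 2 to 4434 in miR-222-3p tumour 1. Group means were 3680.2 ± 559.5 in ctrl, 4048 ± 302 with miR-142-5p, 3754 ± 363 with miR-183-5p and 3903 ± 478 with miR-222-3p. The groups overlapped, and the fold changes lay between 1.02 and 1.10. Thus the spread within a group was as large as the differences between groups.

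Ltbp1 was the only member with groups that did not overlap in normalised counts against ctrl. Its counts were 7234, 7640.2 and 7579 in ctrl and 7105, 7175 and 6183 with miR-142-5p, so that each miR-142-5p tumour lay below each ctrl tumour. On the TPM scale the groups did overlap, with 90.7 to 97.3 TPM against 91.7 to 111 TPM in ctrl. The fold change was 0.911 (95% interval 0.765 to 1.09, DESeq2 adjusted p = 1.0). Among all tested genes, 6.07% did not overlap in this comparison, so 1 of 9 members is no result about the members. In the comparisons of miR-183-5p and miR-222-3p with ctrl, 9.17% and 5.5% of genes did not overlap, and no member was among them. With miR-183-5p the Ltbp1 counts were 7962, 7737 and 6409, and with miR-222-3p they were 7781, 6046 and 6494.

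Tgfbr1, the type I receptor kinase, had counts of 2679.8, 3692 and 4309 in ctrl and 3782, 4505 and 4367 with miR-183-5p. Ctrl tumour 1 was the lowest of the 12, and the groups overlapped. The fold change with miR-183-5p was 1.18 (95% interval 0.941 to 1.49, DESeq2 unadjusted p = 0.149). With miR-222-3p, the miRNA with 2 seed matches in this gene, the counts were 3915, 4200.4 and 3598 and the fold change was 1.10 (0.871 to 1.38). With miR-142-5p they ranged from 3259.7 to 4064.

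Inhba, which encodes the activin beta A chain, was the most variable member. Its counts were 1647, 2681 and 1425 in ctrl, 2779.6, 1226 and 1241 with miR-142-5p, and 1222, 2319 and 2709 with miR-222-3p. With miR-183-5p they were 2521, 2849.6 and 2414. Thus each group except miR-183-5p held low and high tumours, and the miR-183-5p tumours were all high. The fold change against ctrl was 0.912 for miR-142-5p (95% interval 0.573 to 1.45), 1.35 for miR-183-5p (0.850 to 2.15) and 1.09 for miR-222-3p (0.682 to 1.73). The intervals are wide and include folds from 0.573 to 2.15. Seed matches to miR-142-5p and miR-183-5p lie in this gene (shown above), and its level was lower in 1 of these groups and higher in the other, neither beyond the spread between tumours.

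The response genes Smad7, Skil and Pmepa1 encode inhibitors of the pathway that its SMADs switch on: an inhibitory SMAD, a SMAD co-repressor and a membrane protein that binds SMADs. Pmepa1 counts were 4185, 7369 and 4171 in ctrl, 8639, 5334 and 4820.5 with miR-142-5p, and 3385, 6320.0 and 8323 with miR-222-3p. With miR-183-5p they were 6368, 5887 and 6907. The treated groups had higher means than ctrl, but ctrl tumour 2 was above 7 of the 9 treated tumours. The fold changes were 1.20 for miR-142-5p (95% interval 0.783 to 1.83), 1.22 for miR-183-5p (0.798 to 1.86) and 1.15 for miR-222-3p (0.751 to 1.75).

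Skil and Smad7 were steadier than Pmepa1. Skil counts were 3275, 4267 and 4668 in ctrl, and ctrl tumour 1 was the lowest of the 12. The treated tumours lay between 3978 and 4930.3, and the 3 miR-183-5p tumours between 4314 and 4494. Skil holds 2 seed matches to miR-183-5p, and its fold change in that group was 1.08 (95% interval 0.895 to 1.31). Smad7 counts were 1022, 1277 and 1339 in ctrl and lay between 1064 and 1465 in the treated tumours, with fold changes of 0.981, 1.09 and 0.995. Both groups of values overlapped with ctrl in every comparison.

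To compare the miRNAs with each other, the treated groups were tested directly. No member passed the threshold between miR-183-5p and miR-142-5p (0.0519% of genes were called), between miR-183-5p and miR-222-3p (0.0324%) or between miR-142-5p and miR-222-3p (0.0389%). No member differed among the 4 groups in a likelihood ratio test (0.0596% of 15112 genes called, smallest unadjusted p among members 0.312, that of Tgfb2, DESeq2). In these tests the count of members at an unadjusted p-value under 0.05 was also 0, and edgeR and limma called 0 members. No member had groups without overlap, against 12.3%, 9.06% and 6.2% of all genes in the 3 pairs. The largest difference was that of Inhba between miR-183-5p and miR-142-5p, a log2 fold change of 0.57 (SE 0.34, DESeq2 unadjusted p = 0.0960, adjusted p = 0.774).

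This difference turned on 1 tumour. Without miR-142-5p tumour 1, the log2 fold change of Inhba between miR-183-5p and miR-142-5p was 1.07 (SE 0.31, DESeq2 adjusted p = 0.0266), and 2.75% of all genes were called. Over the 14 other alternatives that gave an adjusted p-value for Inhba in this comparison, it ranged from 0.485 to 0.999926. The miR-142-5p tumour 1 stood apart from tumours 2 and 3 of its group in Pmepa1 as well, at 8639 against 5334 and 4820.5. It also had more carcinoma marker RNA, with a summed level of 1826 TPM against 1450 and 1229. The part of this in the Inhba difference was not tested.

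The share of the variance of TPM that lay between groups was 35.4% for Tgfb1, 29.5% for Tgfb2 and 28.1% for Inhba. For the other 6 it lay between 5.94% and 16.6%, and the median of all tested genes was 19.8%. Most of the variation of these genes was therefore between tumours of the same group, as it was for the median gene. This is not particular to the members.

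Next, it was asked whether the genes varied together over the 12 tumours. Of 36 pairs of members, 1 had a Pearson correlation with a Benjamini-Hochberg adjusted permutation p-value under 0.05, and no pair did by Spearman's rho. That pair was Inhba and Pmepa1, with r = 0.835 (permutation p = 0.00106, adjusted p = 0.0382) and rho = 0.783 (permutation p = 0.00376, adjusted p = 0.135). Without miR-142-5p tumour 2 and miR-222-3p tumour 1, the farthest from the median of Inhba, r was 0.842 (permutation p = 0.00397, adjusted p = 0.142). Within the 8 libraries of the larger set r was 0.768 (exact permutation p = 0.0360, adjusted p = 0.649). After group means were taken out r was 0.935 (exact permutation within groups, p = 0.0177, adjusted p = 0.611). The direction held each time, and the adjusted p-value passed only over all 12 tumours in normalised counts.

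As seen once the data were plotted, the Inhba values left a gap, with 5 tumours between 1222 and 1647 and 7 between 2319 and 2849.6 normalised counts. It spanned 40.4% of the Inhba range on the log2 scale. The widest gap was 47.5% of the range for Skil and 37.7% for Tgfbr1, each with 1 tumour below it, so such a gap is not particular to Inhba. The 5 low tumours were ctrl tumours 1 and 3, miR-142-5p tumours 2 and 3 and miR-222-3p tumour 1. The planned values over 12 tumours, given here for Inhba, span this gap. Within the 7 high tumours Inhba and Pmepa1 had r = 0.337 (exact permutation p = 0.447) and rho = 0.214 (exact permutation p = 0.662). Since these 7 were picked by their Inhba values, their narrower range lowers such a coefficient, and it does not show that the relation was absent. No coefficient was computed over the 5 low tumours.

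No correlation of Tgfb1, Tgfb2 or Tgfb3 with Smad7, Skil or Pmepa1 passed the adjusted threshold, which at 12 tumours does not show that they varied independently. Of these, Tgfb3 and Pmepa1 had r = -0.568 (permutation p = 0.0545, adjusted p = 0.392) and rho = -0.622 (permutation p = 0.0337, adjusted p = 0.416). Within the 8 libraries of the larger set r was -0.306 (exact permutation p = 0.477), and without ctrl tumour 2 and miR-222-3p tumour 1 it was -0.356 (permutation p = 0.310). Tgfb2 and Smad7 had rho = 0.622 (permutation p = 0.0346, adjusted p = 0.416) and r = 0.497 (permutation p = 0.0980, adjusted p = 0.468).

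Some members varied with marker genes of the cell types in the tumour. Each cell type was given a level from 5 marker genes, the average of their log2(normalised count + 1), with 4 genes for skeletal muscle and adipocytes, where 1 failed the filter. Of 72 combinations of member and cell type, 2 passed the adjusted threshold by r, and both were with the carcinoma markers Epcam, Krt8, Krt18, Krt14 and Krt19: those of Inhba and of Pmepa1. Pmepa1 rose with the carcinoma level with r = 0.872 (permutation p = 0.00025, adjusted p = 0.00900) and rho = 0.832 (p = 0.00142, adjusted p = 0.0475). Without the 2 tumours farthest from its median, ctrl tumour 3 and miR-222-3p tumour 1, r was 0.772 (permutation p = 0.00960, adjusted p = 0.173). Within the 8 libraries of the larger set r was 0.805 (exact permutation p = 0.0213, adjusted p = 0.297), and the smaller set holds too few for a value. After group means were taken out r was 0.906 (exact permutation within groups, p = 0.0139, adjusted p = 0.25). The direction held each time, whereas the adjusted p-value passed only over all 12 tumours. With group means taken out, permutation within groups gives too few arrangements for any of the 72 combinations to pass alone. Pmepa1 also varied with other cell types at an unadjusted p-value under 0.05. Its r was 0.683 with fibroblast markers (permutation p = 0.0145, adjusted p = 0.131), -0.65 with endothelial markers (p = 0.0241, adjusted p = 0.174) and -0.63 with macrophage markers (p = 0.0287, adjusted p = 0.179). The corresponding rho values were 0.636, -0.67 and -0.69 (permutation p = 0.0300, 0.0202 and 0.0173), and that with T lymphocyte markers was -0.72 (p = 0.0107, adjusted p = 0.141). With group means taken out the r with fibroblast markers was 0.824 (exact permutation within groups, p = 0.0463, adjusted p = 0.256), and within the larger library set it was 0.605 (exact permutation p = 0.118). The marker levels were not independent of each other, and which of them accounts for the variation of Pmepa1 was not tested.

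Inhba rose with the carcinoma level with r = 0.951 (permutation p = 1e-05, the smallest that the permutations can give, adjusted p = 0.000720) and rho = 0.951 (permutation p = 4e-05, adjusted p = 0.00288). Without miR-142-5p tumour 2 and miR-222-3p tumour 1, r was 0.953 (permutation p = 1e-05, adjusted p = 0.000720). Within the larger library set r was 0.959 (exact permutation p = 0.00151, adjusted p = 0.109), and with group means taken out it was 0.977 (exact permutation within groups, p = 0.00231, adjusted p = 0.139). The 5 tumours with low Inhba were those with the 5 lowest carcinoma levels. These levels reached 10.5 on the log2 scale in the low tumours and started at 10.8 in the others. By the summed TPM of the same markers the low and high tumours overlapped. That sum was 1450 TPM in miR-142-5p tumour 2, with low Inhba, and 1401 TPM in miR-222-3p tumour 3, with high Inhba. Within the 7 high tumours r was 0.898 (exact permutation p = 0.0101) and rho was 0.857 (exact permutation p = 0.0238), which adjusted over 8 cell types were 0.0810 and 0.190.

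With other cell types over the 12 tumours, Inhba had r = 0.766 with fibroblast, -0.74 with macrophage, -0.79 with endothelial and -0.63 with T lymphocyte markers (permutation p = 0.00367, 0.00486, 0.00310 and 0.0129). The adjusted p-values were 0.0583, 0.0583, 0.0583 and 0.131. The rho values were 0.755, -0.70, -0.71 and -0.62 (permutation p = 0.00666, 0.0147, 0.0117 and 0.0339), of which none passed the adjusted threshold. Within the 7 high tumours these coefficients lay between -0.03 and 0.243. The narrower Inhba range of these 7, which were picked by Inhba, lowers such coefficients. They do not show that the relations were absent.

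The variation of the carcinoma level between tumours came mostly from the 2 scarcer keratins. On the log2 scale the SD was 0.80 for Krt14 and 0.96 for Krt19, against 0.33 for Epcam, 0.24 for Krt18 and 0.19 for Krt8. Krt14 lay between 6.74 and 14.3 TPM in the 5 tumours with low Inhba and between 19.2 and 37.4 TPM in the 7 high tumours, and Krt19 between 0.870 and 2.17 and between 3.42 and 10.4. In contrast, Epcam, Krt8 and Krt18 overlapped between these tumours. Epcam lay between 69.7 and 96.8 TPM in the low tumours and between 86.6 and 125 TPM in the high tumours. Within the 7 high tumours Inhba had r = 0.706 with Krt18, 0.636 with Krt19 and 0.582 with Krt8. It had 0.447 with Krt14 and 0.302 with Epcam (exact permutation p = 0.0645, 0.119, 0.173, 0.303 and 0.485 in this order). None passed by r or rho after adjustment over these 5 markers. Over the 12 tumours Pmepa1 had r = 0.848 with Krt14, 0.753 with Krt19, 0.662 with Epcam, 0.644 with Krt18 and 0.528 with Krt8 (permutation p = 0.00059, 0.00437, 0.0199, 0.0224 and 0.0766). The corresponding rho values were 0.853, 0.797, 0.594, 0.615 and 0.517 (permutation p = 0.000700, 0.00278, 0.0459, 0.0368 and 0.0886). Adjusted over these 5 relations, which were chosen after the data were seen, the p-values of r were 0.00295, 0.0109, 0.0281, 0.0281 and 0.0766 and those of rho 0.00350, 0.00695, 0.0573, 0.0573 and 0.0886. Which cells held Inhba and Pmepa1 RNA was not measured.

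**Figure D4:**
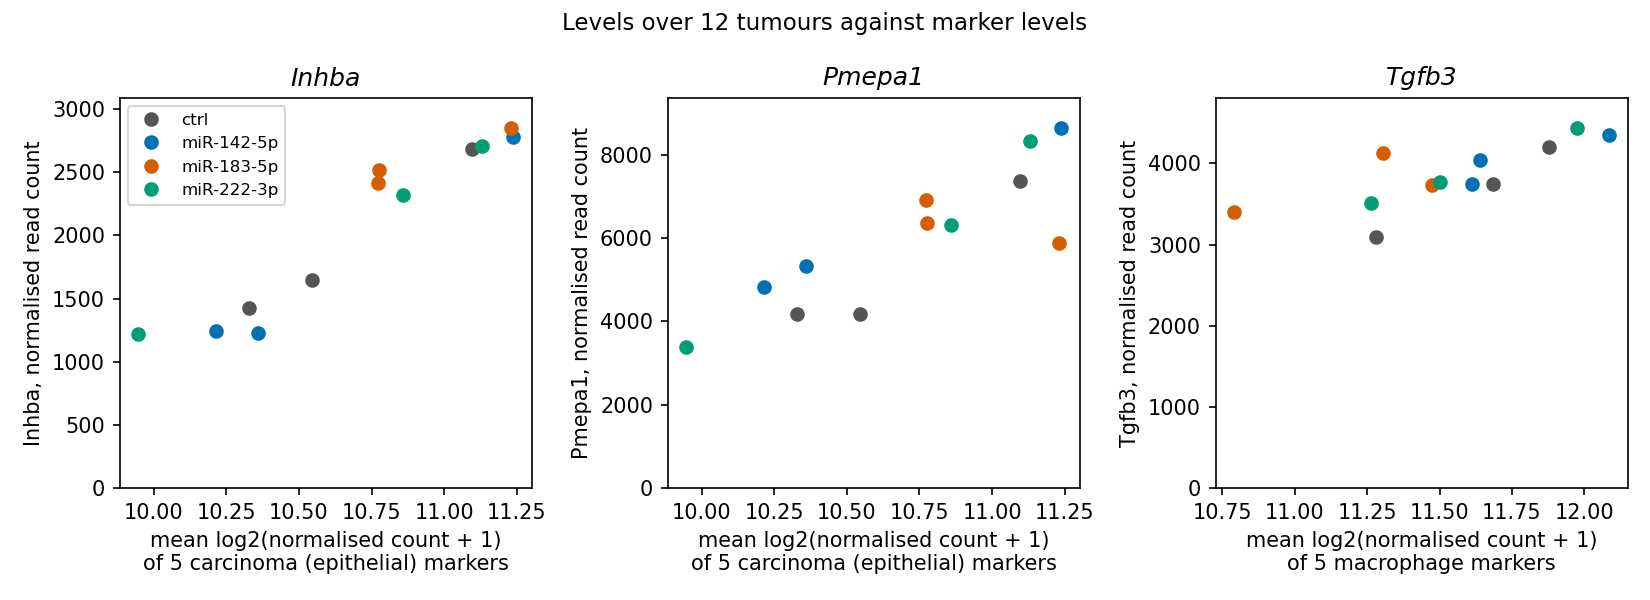
Normalised read counts of Inhba and Pmepa1 against the carcinoma marker level and of Tgfb3 against the macrophage marker level (mean log2(normalised count + 1) of 5 markers); points are the 12 tumours, coloured by the miRNA in the EVs. Inhba rises with the carcinoma level and leaves a gap between 5 low and 7 high tumours, each set with tumours of at least 3 groups, and Pmepa1 rises more gradually.

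Tgfb3 varied with the macrophage markers Adgre1, Csf1r, Cd68, C1qa and Mrc1, with r = 0.765 (permutation p = 0.00408, adjusted p = 0.0583) and rho = 0.818 (p = 0.00198, adjusted p = 0.0475), so that the call depended on the coefficient. It also had r = 0.662 with endothelial markers (permutation p = 0.0198, adjusted p = 0.159; rho = 0.601, p = 0.0424) and rho = 0.671 with T lymphocyte markers (permutation p = 0.0200, adjusted p = 0.146; r = 0.386, p = 0.215). With macrophage markers and without ctrl tumour 2 and miR-222-3p tumour 1, r was 0.789 (permutation p = 0.00598, adjusted p = 0.173). Within the 8 libraries of the larger set r was 0.666 (exact permutation p = 0.0700, adjusted p = 0.560). After group means were taken out it was 0.886 (exact permutation within groups, p = 0.00386, adjusted p = 0.139). Summed macrophage markers ranged from 889 to 1141 TPM in ctrl, from 994 to 1456 TPM with miR-142-5p, from 584 to 902 TPM with miR-183-5p and from 786 to 1203 TPM with miR-222-3p. None of these markers was at 0 in any tumour. Tgfb1 had no relation to any of the 8 marker levels at an unadjusted p-value under 0.05 by r.

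By the closest pattern over the 12 tumours, among genes with a mean normalised count of at least 100, Inhba was most like 2310007B03Rik (r = 0.971) and Erfe (0.969), which encodes erythroferrone. Pmepa1 was most like Hebp2 (0.950) and Capg (0.930), the latter an actin-capping protein. Tgfb3 was most like Chmp1b (0.961) and Il10rb (0.938), a subunit of the interleukin-10 receptor. Tgfb1 was closest to Trim27 (0.928) and Dctn5 (0.906), and Smad7 to Ubtd2 (0.920) and Npr3 (0.912). The closest genes of the other members had lower coefficients: Ltbp1 with Cyp20a1 (0.873) and Insig2 (0.860), Tgfbr1 with Rnf216 (0.853) and Plekhb2 (0.852), Skil with Wars2 (0.852) and Wwc2 (0.834), and Tgfb2 with Cd300lb (0.845) and Grb10 (0.815). These are the highest of many coefficients and are descriptions only.

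The other genes of the pathway were examined in 5 lists, which add 76 genes, of which 69 were tested. With each of the 3 miRNAs, 0 of 69 rose and 0 fell against ctrl by DESeq2. At an unadjusted p-value under 0.05 there were 3, 3 and 1 of the 69, beside 3.55%, 3.21% and 2.28% of all tested genes (DESeq2). These counts are too small to set the lists apart from all genes, and edgeR and limma called 0. With miR-183-5p, 19 of 25 listed response genes, such as matrix and contractile genes, had a positive fold change, with a median log2 value of 0.37. Over all tested genes 47.3% were positive and the median was -0.011. With miR-222-3p the values were 18 of 25 and 0.22, beside 48.0% of all genes, and with miR-142-5p they were 8 of 25 and -0.10, beside 48.8%. Summed fibroblast markers, which share Col1a1 with this list, lay between 308 and 405 TPM with miR-183-5p and between 158 and 303 TPM in ctrl. They lay between 156 and 505 TPM with miR-222-3p and between 117 and 290.2 TPM with miR-142-5p, and their part in these counts was not tested. Medians of the lists of ligands, receptors, latency genes and SMADs, which include the members, lay between -0.06 and 0.22 in the 3 comparisons.

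Among the response genes, the call for miR-183-5p depended on which tumours entered the fit. When only the miR-183-5p and ctrl tumours were fitted, Tagln, an actin-binding protein of contractile cells, and Lox, a collagen cross-linking enzyme, passed the threshold. In that fit 0.233% of all genes were called, and 9.17% of all tested genes did not overlap between miR-183-5p and ctrl tumours. Tagln counts were 2880.2, 2287 and 2967 with miR-183-5p and 1198, 1597 and 929 in ctrl, which do not overlap. The log2 fold change was 1.13 (SE 0.20, DESeq2 adjusted p = 0.000271) against 1.13 (SE 0.66, adjusted p = 0.999817) with all 12 tumours, so that the estimated spread changed and the size of the difference did not. Tagln ranged from 614 to 2672 with miR-142-5p and from 657 to 3240.0 with miR-222-3p, a wider spread than within the miR-183-5p and ctrl groups. Lox counts were 1808, 1896 and 2708 with miR-183-5p against 866, 1532 and 604 in ctrl, and these do not overlap either. Its log2 fold change was 1.10 (SE 0.28, DESeq2 adjusted p = 0.0473) in the fit of 2 groups. In the 15 other alternatives that gave a value, the adjusted p-values of both genes were at least 0.788. The part of the fibroblast marker level, given above, in these differences was not tested.

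Of the genes with the smallest unadjusted p-values per list, Nedd4l, a ubiquitin ligase that acts on SMADs, had counts of 841, 927 and 959 with miR-183-5p and 680.1, 566 and 683 in ctrl. The Nedd4l counts with miR-183-5p did not overlap with ctrl, and neither did those of 9.17% of all tested genes. These 3 tumours also lay above the 9 others, of which the highest was miR-142-5p tumour 1 at 814. The share of genes that set 3 tumours apart from 9 in this way was not determined. The log2 fold change against ctrl was 0.50 (SE 0.17, DESeq2 unadjusted p = 0.00335, adjusted p = 0.999817). Dcn, a proteoglycan that binds TGF-beta and also 1 of the fibroblast markers, was higher than in each ctrl tumour with miR-183-5p and with miR-222-3p. Its unadjusted p-values were 0.0114 and 0.00540 (DESeq2). Among all tested genes, 9.17% and 5.5% did not overlap with ctrl in these comparisons. Id3, a BMP-responsive gene, had a log2 fold change of -0.58 with miR-183-5p (unadjusted p = 0.0474). With miR-142-5p, Fst, an activin trap, had -1.06 (unadjusted p = 0.0463), Itgb6, an integrin that activates TGF-beta, 1.06 (unadjusted p = 0.0492) and Zfyve9, a SMAD anchor, -0.26 (unadjusted p = 0.0454). The adjusted p-value of each of these genes was at least 0.999817 (DESeq2). Itgb6 rested on tumour 1 of the group, with 203 counts against 25.5 and 71.8 in the others. Ccn2, a matricellular response gene, had 4990.4 counts in that tumour and 1669 and 1618 in the other 2, against 2887 to 3107 in ctrl. Without miR-142-5p tumour 1 it was called lower than in ctrl, with a log2 fold change of -0.87 (SE 0.24, DESeq2 adjusted p = 0.0445), and 0.529% of all genes were called in that fit. In the 15 other alternatives that gave a value, its adjusted p-value was at least 0.999616.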

How the data were processed

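Per the labels, polyadenylated RNA was prepared with a strand-specific kit. The authors quantified the reads with Salmon and deposited, for each of 118783 transcripts, an estimated count, a TPM value and an effective length in bases. Methods and tables name different Ensembl releases, so identifiers were matched without version to GENCODE M21 on GRCm38 (98.3%). Counts and TPM were summed per gene, counts were rounded, and the mean effective length entered as an offset. Genes that reached 10 reads in 3 or more libraries were tested with DESeq2 1.42.0 in R 4.3.3 (Wald test, 12 tumours in 1 fit, Benjamini-Hochberg adjustment over all genes tested). Normalised read counts are divided by DESeq2's factors, and 95% intervals are Wald intervals. Correlations used log2(normalised count + 1) and 100000 permutations (two-sided), or all of them for under 10 tumours. Alternatives were edgeR 4.0.16, limma 3.58.1 on log2(TPM + 1), TMM factors, 2 other count filters, no offset, only 2 groups, a replicate block, leaving out each tumour, a threshold of 0.1 and the larger library set. Scripts were tested on simulated data, in which DESeq2 recovered the folds but made more false calls than edgeR. The calls of Inhba, Tagln, Lox and Ccn2 in single alternatives are DESeq2 calls, to which this applies. The members, the pathway and marker lists and the tests were chosen with earlier results of these data known. Other pathway genes were named by the 2 smallest unadjusted p-values under 0.05 per list and comparison with ctrl, and Tagln, Lox and Ccn2 because an alternative called them. A further result among the response genes is not reported here.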

Additional observations from a re-analysis of the deposited data

How the results depend on the processing

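With 3 tumours per group the 95% intervals against ctrl lay between folds of 0.760 and 1.49 for the steadier members. They were wider for Inhba, Tgfb2 and Pmepa1, and differences inside these intervals are not excluded. Of 119 recounts of the members called, 118 gave 0. Without miR-142-5p replicate 1 the count was 1 (Inhba) between miR-183-5p and miR-142-5p, so the counts ranged from 0 to 1 when tumours were left out. Pathway genes called ranged from 0 to 1 for miR-142-5p when tumours were left out, and rose from 0 to 3 for miR-183-5p when only the 2 groups were fitted. The cause was not tested. The replicate numbers give no pairing in the labels. Deviations of tumours with the same number had a mean correlation of -0.0449, against 0.0223 for different numbers, and 4 of 12 tumours correlated best with their own number. With the replicate block 0 members were called in each of the 7 tests, and calls over all genes changed from 0 to 1 for miR-183-5p against ctrl, from 4 to 6 for miR-222-3p against ctrl, from 5 to 9 between miR-183-5p and miR-222-3p, and from 9 to 5 among the 4 groups.

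Of 36 member pairs, 1 passed by r, and 0 did with group means taken out, in the 8 libraries of the larger set, without the 2 farthest tumours or on log2(TPM + 1). Of 72 pairs with markers, 2 passed, against 0, 0, 1 and 5 under these settings. With group means taken out, no pair of the 72 could pass alone, as permutation within groups gives few arrangements. No member's fold change against ctrl was called under any alternative, but signs turned in 5 of 261 recalculations and in 27 of 162 that left out a tumour. For Smad7 with miR-222-3p the log2 fold change turned to 0.0195 without the length offset, 0.00294 with limma and 0.0206 with protein-coding transcripts only. In the larger library set that of miR-183-5p turned to -0.0187 for Tgfb2 and 0.0685 for Ltbp1. When tumours were left out, the log2 fold changes with miR-142-5p ranged from -0.64 to 0.19 for Inhba, from -0.0452 to 0.58 for Pmepa1, from -0.0336 to 0.21 for Skil, from -0.13 to 0.04997 for Smad7, from -0.0133 to 0.17 for Tgfb1 and from -0.12 to 0.21 for Tgfbr1. With miR-183-5p they ranged from -0.0819 to 0.0677 for Ltbp1, from -0.0196 to 0.23 for Skil, from -0.0196 to 0.41 for Tgfb2 and from -0.0838 to 0.14 for Tgfb3. With miR-222-3p they ranged from -0.12 to 0.44 for Inhba, from -0.11 to 0.52 for Pmepa1, from -0.0927 to 0.15 for Skil, from -0.12 to 0.0717 for Smad7, from -0.0268 to 0.19 for Tgfb3 and from -0.0352 to 0.30 for Tgfbr1.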
